A study of Saccharomyces cerevisiae with 8 samples.

Results

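The 10 genes described here belong to the general stress response of budding yeast (Saccharomyces cerevisiae) and do not encode protein-folding chaperones: HSP12 (YFL014W), CTT1 (YGR088W), ALD3 (YMR169C), DDR2 (YOL052C-A), NQM1 (YGR043C), RTN2 (YDL204W), GPG1 (YGL121C), SPI1 (YER150W), PNC1 (YGL037C) and USV1 (YPL230W). They were taken by gene symbol, all 10 were found among the 5449 genes measured, and each was read by 1 probe set. The genes were selected on their log2 values across the 4 strains as well as on their class, so every difference between strains given for them is a description, and its p-value is no independent support. Cultures of a wild type (wt) and of strains deleted for DOT1, SWI4 or ARD1 were compared. All were grown in rich medium (YPD) at 30 C and collected in mid-log phase, at an optical density of 0.7. Each strain had 2 arrays, which the labels call biological replicates, and the whole series holds 8. The sources used here name no strain background, mating type or deletion marker, and do not say whether a strain was 1 clone or several.

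Msn2 and Msn4 are zinc-finger activators that bind a short stress response element in yeast promoters. Protein kinase A keeps them in the cytoplasm while glucose is plentiful, and heat, oxidants, osmotic shock or starvation send them into the nucleus, where they switch on a broad set of protective genes. Members of that set handle peroxides and aldehydes, coat membranes and the cell wall, and redirect carbon. Dot1 is a histone H3 methyltransferase, Swi4 is the subunit of the G1 activator SBF that contacts DNA, and Ard1 is the catalytic subunit of the N-terminal acetyltransferase NatA.

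The deposited values were intensities per probe set, and each level below is log2 of such an intensity. Levels of different genes are not compared, because each probe set has its own scale. The array wt replicate 2 stood apart, with a median intensity over all probe sets of 713 against 623 to 644 on the other 7 arrays. Its genes lay a median of 0.14 log2 units above wt replicate 1. The deleted genes were low in their own strains: log2 changes against wt were −3.31 for DOT1, −0.91 for SWI4 and −5.23 for ARD1. SWI4 was already dim in wt, at 5.14 and 5.11. Over all genes the median change against wt was −0.07 for dot1, −0.10 for swi4 and −0.07 for ard1, and all 3 comparisons with wt use the same pair of wt arrays.

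Each of the 10 genes had its highest mean in swi4 or dot1 and its lowest in wt or ard1. In swi4, 7 of the 10 rose against wt and 0 fell: GPG1, NQM1, ALD3, RTN2, HSP12, CTT1 and SPI1, by 1.58-fold to 4.84-fold. The median change of the 10 was 1.28 on the log2 scale. In dot1 all 10 changes were positive, with a median of 0.58, and 2 passed the threshold, RTN2 and GPG1. In ard1 the changes were 5 positive and 5 negative with a median of −0.02, and GPG1 and SPI1 rose while USV1 fell. The threshold was an adjusted p under 0.05 from limma, adjusted by the Benjamini-Hochberg method over all 5449 genes. Of all genes, 5.16% rose and 7.01% fell in swi4, 1.12% and 1.34% did so in dot1, and 6.26% and 12.2% in ard1. These shares stand beside the counts only as background, because the genes were chosen with these comparisons known.

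**Figure D1:**
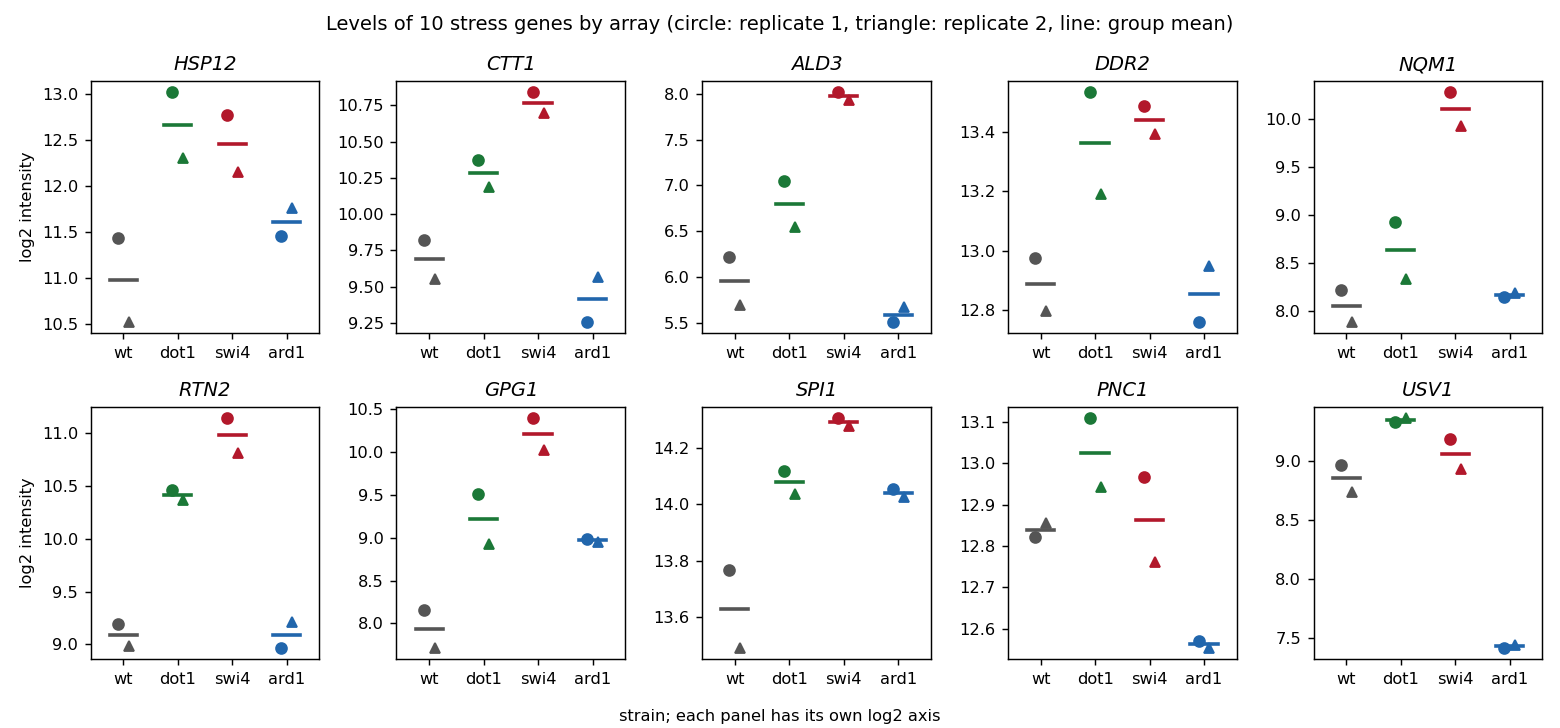
Log2 intensity (vertical axis, one scale per panel) of each of the 10 genes on the 8 arrays, by strain; circles are replicate 1, triangles replicate 2 and lines group means. The swi4 arrays lie above both wt arrays in 8 of the 10 panels, and the ard1 arrays lie far below wt for USV1.

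Both arrays of a mutant lay beyond both wt arrays for 10 of the 10 genes in dot1, all upward, and for 8 in swi4, all upward. In ard1 there were 3 such genes upward (HSP12, GPG1 and SPI1) and 3 downward (ALD3, PNC1 and USV1). Over all genes the same separation occurred upward in 15.8% and downward in 26.8% of genes in dot1, in 22.5% and 37.1% in swi4, and in 21.5% and 35.6% in ard1. With 2 arrays against 2 no exact permutation test of 1 gene can give a two-sided p below 0.333.

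The counts depended on single arrays, as did the counts over all genes in every comparison. In swi4 the count of 7 became 1 when swi4 replicate 1 was left out (RTN2) and 3 when swi4 replicate 2 was (NQM1, RTN2 and GPG1), and stayed between 6 and 8 for the other arrays. In dot1 the count of 2 became 7 when wt replicate 1 was left out, 1 for either swi4 array (RTN2) and 0 for wt replicate 2 or any dot1 or ard1 array. In ard1 the count of 3 was 1 when wt replicate 2 or any swi4 or ard1 array was left out, that 1 being USV1 each time.

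HSP12, RTN2 and SPI1 act at membranes or the cell surface. HSP12 encodes a small hydrophilic protein that folds onto membranes and stabilises them under stress. HSP12 read 11.44 and 10.53 on the wt arrays, 13.02 and 12.30 on the dot1 arrays, 12.77 and 12.15 on the swi4 arrays and 11.46 and 11.76 on the ard1 arrays. Both dot1 and both swi4 arrays were above every wt and ard1 array, and the ard1 arrays were just above wt replicate 1. The 2 wt arrays themselves differed by 0.91, the largest replicate difference among the 10 genes. HSP12 was 3.20-fold higher in dot1 (log2 change 1.68 ± 0.38 SE, n = 2 against 2, limma adjusted p = 0.0666) and 2.79-fold higher in swi4 (1.48 ± 0.38, adjusted p = 0.0499). Without wt replicate 2 the swi4 change was 1.03. The swi4 call was lost without wt replicate 2, either swi4 array or either ard1 array, and with only swi4 and wt fitted. In ard1 the change was 0.63 ± 0.38 (limma adjusted p = 0.303).

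RTN2 encodes a reticulon, a protein that bends the endoplasmic reticulum into tubules. RTN2 read 9.19 and 8.99 on the wt arrays, 10.46 and 10.36 on the dot1 arrays, 11.14 and 10.82 on the swi4 arrays and 8.97 and 9.21 on the ard1 arrays. The swi4 arrays were the highest, the dot1 arrays came next without overlap, and the wt and ard1 arrays overlapped. RTN2 rose 3.71-fold in swi4 (1.89 ± 0.15, limma adjusted p = 0.00189) and 2.50-fold in dot1 (1.32 ± 0.15, adjusted p = 0.0162). The swi4 rise passed the threshold whichever of the 8 arrays was left out, and RTN2 was the only one of the 10 genes of which this held in swi4. In ard1 the change was 0.00, with a 95% interval of −0.35 to 0.35.

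SPI1 encodes a cell wall protein held by a glycolipid anchor and induced by weak acids and in stationary phase. SPI1 read 13.77 and 13.49 on the wt arrays, 14.12 and 14.04 on the dot1 arrays, 14.30 and 14.28 on the swi4 arrays and 14.05 and 14.02 on the ard1 arrays. Every mutant array was above both wt arrays, and the 3 mutants spanned a narrow range. SPI1 rose 1.58-fold in swi4 (0.66 ± 0.11, limma adjusted p = 0.0159) and 1.33-fold in ard1 (0.41 ± 0.11, adjusted p = 0.0463), and the dot1 value was 1.36-fold (0.45 ± 0.11, adjusted p = 0.0818). Without wt replicate 2 the ard1 change was 0.27. The ard1 call was lost when any array but wt replicate 1 was left out. It was also lost after median centring, after quantile normalization and with only ard1 and wt fitted.

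**Figure D2:**
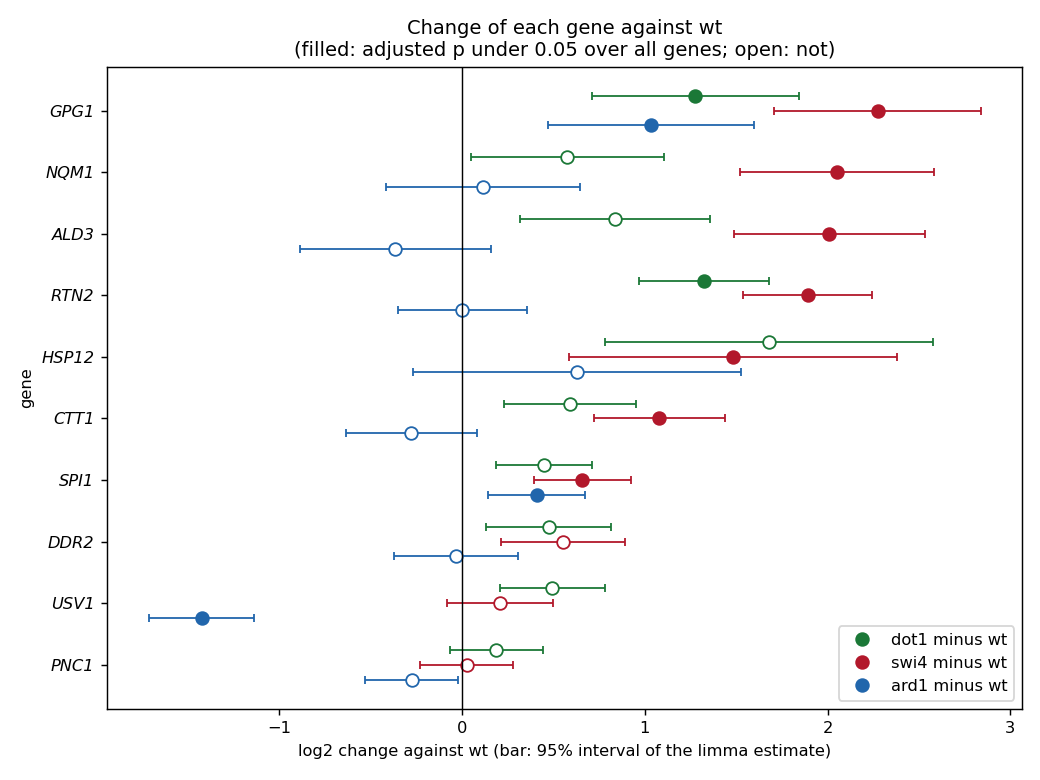
Log2 change against wt (horizontal axis) of each gene in dot1, swi4 and ard1, with the 95% interval of the limma estimate; filled points passed the threshold of adjusted p under 0.05 over all genes. The 7 filled swi4 points run from 0.66 for SPI1 to 2.27 for GPG1, and the ard1 point of USV1 lies at −1.42.

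CTT1 and ALD3 handle reactive molecules. CTT1 encodes catalase T, the cytosolic enzyme that breaks down hydrogen peroxide. CTT1 read 9.82 and 9.56 on the wt arrays, 10.37 and 10.19 on the dot1 arrays, 10.84 and 10.70 on the swi4 arrays and 9.26 and 9.57 on the ard1 arrays. The order was swi4, dot1, then wt and ard1, with overlap only between wt and ard1. CTT1 rose 2.11-fold in swi4 (1.08 ± 0.15, limma adjusted p = 0.00931), while the dot1 value was 1.51-fold (0.59 ± 0.15, adjusted p = 0.0873). The swi4 rise did not pass without swi4 replicate 1 or swi4 replicate 2.

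ALD3 encodes a cytosolic aldehyde dehydrogenase that serves beta-alanine synthesis. ALD3 read 6.22 and 5.70 on the wt arrays, 7.05 and 6.54 on the dot1 arrays, 8.01 and 7.93 on the swi4 arrays and 5.51 and 5.67 on the ard1 arrays. No neighbouring strains overlapped in this order, although wt replicate 2 lay only just above the upper ard1 array. ALD3 rose 4.03-fold in swi4 (2.01 ± 0.22, limma adjusted p = 0.00481), and the change was 0.84 ± 0.22 in dot1 (adjusted p = 0.0928) and −0.36 ± 0.22 in ard1 (adjusted p = 0.305). ALD3 belonged to the dimmest 25% of genes, and its swi4 rise did not pass without swi4 replicate 1 or swi4 replicate 2.

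NQM1 and PNC1 are metabolic genes. NQM1 encodes a transaldolase of the non-oxidative pentose phosphate pathway. NQM1 read 8.22 and 7.88 on the wt arrays, 8.92 and 8.33 on the dot1 arrays, 10.28 and 9.93 on the swi4 arrays and 8.15 and 8.18 on the ard1 arrays. Only swi4 stood well away from the rest, and wt and ard1 overlapped. NQM1 rose 4.14-fold in swi4 (2.05 ± 0.22, limma adjusted p = 0.00481), against 1.49-fold in dot1 (0.58 ± 0.22, adjusted p = 0.192). The swi4 rise did not pass without swi4 replicate 1 (adjusted p = 0.0611).

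PNC1 encodes the nicotinamidase that removes nicotinamide, an inhibitor of the silencing deacetylase Sir2. PNC1 read 12.82 and 12.86 on the wt arrays, 13.11 and 12.94 on the dot1 arrays, 12.97 and 12.76 on the swi4 arrays and 12.57 and 12.55 on the ard1 arrays. This was the smallest spread of group means among the 10 genes, 0.46 from dot1 to ard1. No change against wt passed: 0.19 in dot1 (95% interval −0.07 to 0.44), 0.03 in swi4 (−0.23 to 0.28) and −0.28 in ard1 (−0.53 to −0.02, limma adjusted p = 0.127).

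GPG1 and USV1 belong to signalling and transcription. GPG1 encodes a small protein that binds the kelch-repeat partners of Gpa2, the G protein subunit of the glucose-sensing branch upstream of protein kinase A. GPG1 read 8.16 and 7.72 on the wt arrays, 9.51 and 8.92 on the dot1 arrays, 10.39 and 10.03 on the swi4 arrays and 8.99 and 8.95 on the ard1 arrays. All 6 mutant arrays were above both wt arrays, dot1 and ard1 overlapped, and swi4 was highest. GPG1 passed the threshold in all 3 mutants, the only one of the 10 genes to do so. It rose 4.84-fold in swi4 (2.27 ± 0.24, limma adjusted p = 0.00439), 2.42-fold in dot1 (1.28 ± 0.24, adjusted p = 0.0484) and 2.05-fold in ard1 (1.03 ± 0.24, adjusted p = 0.0288). Without wt replicate 2 these log2 changes became 2.05, 1.06 and 0.81. The swi4 call was lost without swi4 replicate 1 and kept without any other array. The dot1 call was lost when any array but wt replicate 1 was left out, after quantile normalization and with only dot1 and wt fitted. The ard1 call was lost without wt replicate 2 or any swi4 or ard1 array.

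USV1 encodes a zinc-finger transcription factor that acts in growth on non-fermentable carbon and in salt stress. USV1 read 8.96 and 8.74 on the wt arrays, 9.33 and 9.36 on the dot1 arrays, 9.19 and 8.93 on the swi4 arrays and 7.42 and 7.44 on the ard1 arrays. The ard1 arrays were far below all others, and wt and swi4 overlapped. USV1 fell 2.68-fold in ard1 (−1.42 ± 0.12, limma adjusted p = 0.00176), the only fall against wt that passed among the 10 genes, and it passed whichever of the 8 arrays was left out. The change was 0.50 ± 0.12 in dot1 (adjusted p = 0.0799) and 0.21 ± 0.12 in swi4 (adjusted p = 0.292).

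DDR2 encodes a small protein induced by DNA damage and many other stresses. DDR2 read 12.98 and 12.80 on the wt arrays, 13.53 and 13.19 on the dot1 arrays, 13.49 and 13.39 on the swi4 arrays and 12.76 and 12.95 on the ard1 arrays. The dot1 and swi4 arrays were above all wt and ard1 arrays, and overlapped each other. DDR2 was 1.47-fold higher in swi4 (0.55 ± 0.14, limma adjusted p = 0.0525), just outside the threshold that HSP12 met at 0.0499. DDR2 did pass in swi4 after median centring or quantile normalization.

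Comparison of the mutants with each other does not involve the wt arrays, except through the shared estimate of spread. All 10 genes were lower in ard1 than in swi4, with a median log2 difference of −1.30, and for all 10 both ard1 arrays were below both swi4 arrays, as in 33.3% of all genes. Of the 10, 7 passed the threshold downward and 0 upward, beside 9.07% and 6.2% of all genes. ALD3 was 5.19-fold lower (−2.38 ± 0.22, limma adjusted p = 0.00257), NQM1 3.83-fold (−1.94 ± 0.22), RTN2 3.71-fold (−1.89 ± 0.15) and USV1 3.10-fold (−1.63 ± 0.12). CTT1 (−1.36 ± 0.15), GPG1 (−1.24 ± 0.24) and DDR2 (−0.58 ± 0.14) were the other called genes. HSP12, SPI1 and PNC1 gave −0.85, −0.25 and −0.30 without passing. The count was 3 without swi4 replicate 1, and 5 to 7 without any 1 of the other arrays.

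Against dot1, ard1 was lower in all 10 genes (median −0.69), with both arrays below both dot1 arrays in 8, as in 29.8% of all genes. The threshold was passed by 5, all downward: USV1 (−1.92 ± 0.12, limma adjusted p = 0.00127), RTN2 (−1.32 ± 0.15), ALD3 (−1.20 ± 0.22), CTT1 (−0.87 ± 0.15) and PNC1 (−0.46 ± 0.11, adjusted p = 0.0350). Over all genes 8.44% were called lower and 5.67% higher. The count of 5 was 2 without dot1 replicate 1, ard1 replicate 1 or ard1 replicate 2. GPG1 and SPI1 differed little between these strains, by −0.24 (95% interval −0.81 to 0.32) and −0.04 (−0.30 to 0.23).

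Between swi4 and dot1 only NQM1 passed, 2.78-fold higher in swi4 (1.47 ± 0.22, limma adjusted p = 0.0419), where 0.367% of all genes were called higher and 0.642% lower. ALD3 (1.17 ± 0.22, adjusted p = 0.0715), GPG1 (0.997 ± 0.24), RTN2 (0.57 ± 0.15), CTT1 (0.49 ± 0.15) and SPI1 (0.21 ± 0.11) did not pass. With NQM1 they make 6 of 10 genes with both swi4 arrays above both dot1 arrays, beside 20.6% of all genes. HSP12, PNC1 and USV1 went the other way, by −0.20, −0.16 and −0.29, and their 95% intervals included 0. NQM1 did not pass when dot1 replicate 2 or any swi4 or ard1 array was left out.

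The replicates of a strain also differed in these genes. In wt, 9 of the 10 genes were lower in replicate 2, with a median difference of −0.27, while the median of all genes was 0.14 higher there and 30.8% of all genes were lower. In dot1, 9 of 10 were lower in replicate 2 (median −0.26; all genes 0.02, with 46.6% lower). In swi4 it was 10 of 10 (median −0.23; all genes 0.00, with 49.9% lower). In ard1, 7 of 10 were higher in replicate 2 (median 0.10; all genes 0.03). HSP12 gave the largest difference of the 10 in wt (−0.91), dot1 (−0.72) and swi4 (−0.62), and CTT1 in ard1 (0.31). Each difference is 1 array against 1, so it has no test.

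**Figure D3:**
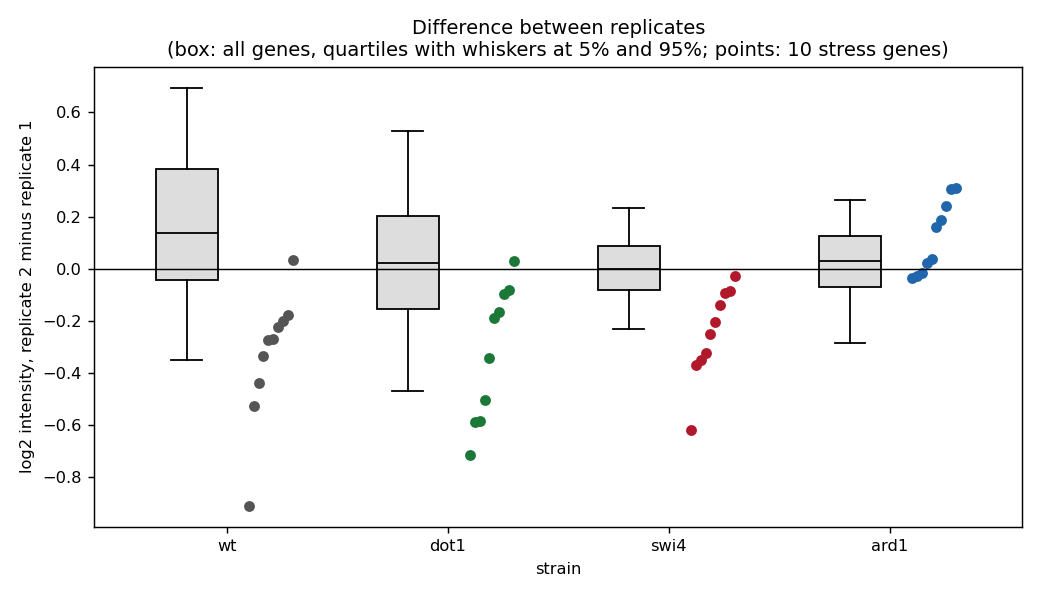
Log2 intensity of replicate 2 minus replicate 1 (vertical axis) within each strain; boxes show all 5449 genes with whiskers at 5% and 95%, and points the 10 genes. Most points lie below 0 in wt, dot1 and swi4, with medians of −0.27, −0.26 and −0.23, and above it in ard1, where the median is 0.10.

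Across the 8 arrays the 45 pairs of genes had a median Pearson correlation of 0.76, from 0.08 (SPI1 with PNC1) to 0.98 (CTT1 with ALD3), and 0 pairs were negative. These arrays share the 4 strains, so the correlations describe mainly the order of the strains and carry no p. RTN2, DDR2, CTT1 and ALD3 followed the mean profile of the other 9 genes most closely (0.98, 0.97, 0.97 and 0.95). SPI1, USV1 and PNC1 followed it least (0.71, 0.61 and 0.57).

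Outside the set, the gene whose profile over the 8 arrays was most like the mean of the 10 was YNL194C (r = 0.98), a membrane protein gene of the SUR7 family. YNL194C read 8.57 and 8.04 on the wt arrays, 10.20 and 9.60 on the dot1 arrays, 10.54 and 10.55 on the swi4 arrays and 7.74 and 8.45 on the ard1 arrays. Its swi4 change was 2.24 ± 0.30. The next 9 were ERV41, YNK1, SOD2, YMR090W, RTC3, YNL195C, ATG34, HPA2 and TRR2, with r from 0.97 to 0.98. Their swi4 changes ran from 0.24 for ERV41 to 1.33 for YNL195C. All of these genes were chosen for their likeness over the same arrays, so their changes restate that choice and are given with no test.

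For single genes of the set, YNL194C was also the nearest gene to CTT1 and to RTN2. TMA10 was nearest to HSP12, PIR3 to ALD3, HSP31 to DDR2, RFA2 to NQM1, SRY1 to GPG1, APE1 to SPI1, STF2 to PNC1 and TAZ1 to USV1, with r from 0.977 to 0.996. SRY1, chosen for its likeness to GPG1, gave changes of 0.86, 1.49 and 0.79 for dot1, swi4 and ard1.

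For 6 genes of the set a paralogue was read, a related copy elsewhere in the genome, and limma called 0 of these copies in each mutant. At an unadjusted p under 0.05, dot1 had 0 higher and 1 lower, swi4 had 1 higher and 1 lower, and ard1 had 0 higher and 2 lower. TAL1, the main transaldolase gene, changed by −0.08 ± 0.09 in swi4, where NQM1 rose by 2.05. RTN1, the main reticulon gene, changed by −0.01 ± 0.08 where RTN2 rose by 1.89, and SED1, an abundant cell wall protein gene, by −0.06 ± 0.08 where SPI1 rose by 0.66. HOR7 gave 0.12 ± 0.08 in swi4 beside 0.55 for DDR2. On wt replicate 1, TAL1, RTN1, HOR7 and SED1 read 13.63, 13.95, 14.37 and 14.37, high on the array scale. Whether such bright readings compress a change was not tested.

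ALD2 and RGM1 gave larger values. ALD2, the neighbour of ALD3 on the chromosome, read 9.16 and 8.80 on the wt arrays, 9.66 and 9.15 on the dot1 arrays, 9.64 and 9.58 on the swi4 arrays and 8.37 and 8.28 on the ard1 arrays. Its changes were 0.43, 0.63 and −0.65 ± 0.19 in dot1, swi4 and ard1 (limma adjusted p = 0.249, 0.0782 and 0.0585), with the signs of the ALD3 changes. The sequences of ALD2 and ALD3 are similar, and the part of cross-hybridisation in these values was not tested. RGM1, the zinc-finger paralogue of USV1, read 9.76 and 9.41 on the wt arrays, 8.98 and 8.55 on the dot1 arrays, 9.05 and 8.74 on the swi4 arrays and 9.91 and 9.50 on the ard1 arrays. Its changes of −0.82, −0.69 and 0.12 ± 0.22 were opposite in sign to those of USV1 in each mutant (adjusted p = 0.0990, 0.0905 and 0.759). Leaving out 1 array gave at most 1 called paralogue in swi4 and in ard1.

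**Figure D4:**
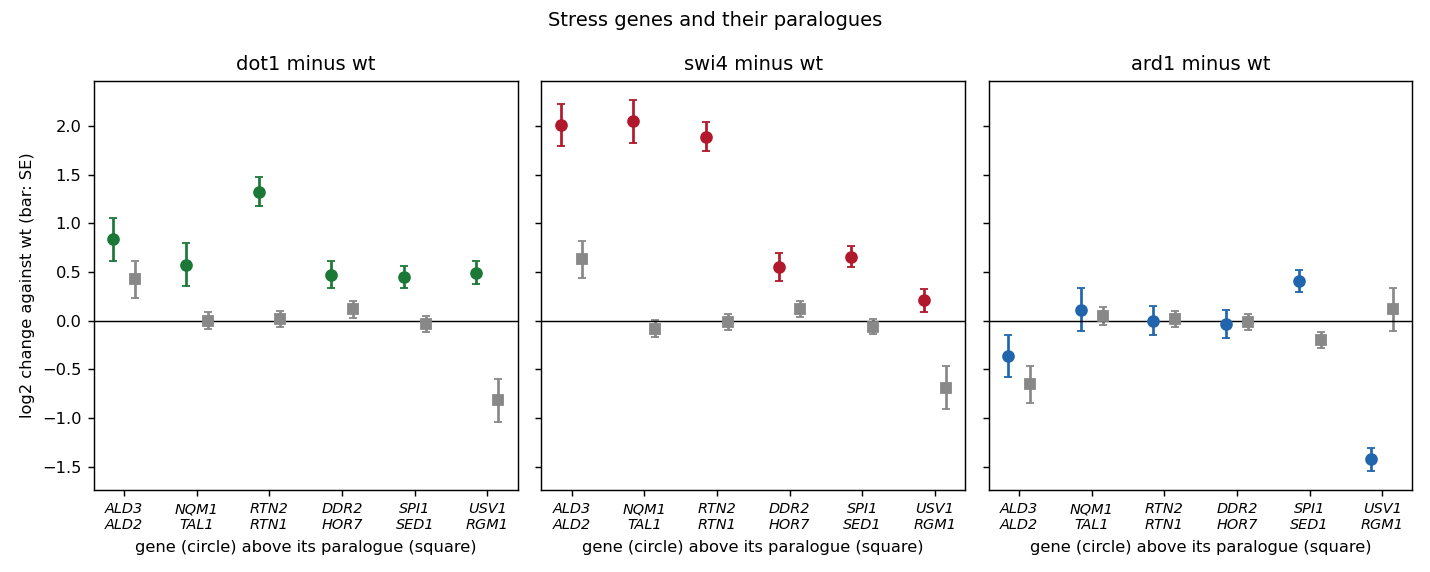
Log2 change against wt (vertical axis, bars are SE) of 6 genes of the set (circles) and their paralogues (squares) in dot1, swi4 and ard1. TAL1, RTN1, HOR7 and SED1 lie within 0.20 of 0 in the 3 mutants, while ALD2 shares the signs of ALD3 and RGM1 has signs opposite to USV1.

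Other enzymes of the same kinds were read as well. Beside the list counts here and below, 5.16% of all genes rose and 7.01% fell in swi4. In dot1 1.12% rose and 1.34% fell, and in ard1 6.26% rose and 12.2% fell. CTA1, the peroxisomal catalase gene, fell in swi4 (−0.64 ± 0.15) and ard1 (−0.75 ± 0.15) and gave −0.47 in dot1, whereas CTT1 rose in swi4. Of the mitochondrial aldehyde dehydrogenase genes, ALD4 fell (−0.78 ± 0.14) and ALD5 rose in ard1 (0.77 ± 0.10), and the fourth gene of this list passed nowhere. The CTA1 fall in swi4 did not pass when any wt, swi4 or ard1 array was left out, and the falls in ard1 did not when either ard1 array was. The list of 9 pentose phosphate pathway genes beside NQM1 did not hold GND2, TKL2 and SOL4, which were counted in the wider stress list below. GND2, TKL2 and SOL4 rose in swi4 (1.32, 1.14 and 1.34, GND2 and TKL2 named after their values were seen). Within the list of 9, 1 gene rose in swi4 and in ard1, SOL3, a 6-phosphogluconolactonase gene (0.35 ± 0.08 and 0.58 ± 0.08). Neither SOL3 rise passed when an array of that mutant was left out. The swi4 call was also lost without wt replicate 2 or either ard1 array. The list of NAD synthesis and salvage and its users, which surround PNC1, held 19 genes. Of these, 2 rose and 2 fell in swi4, 2 fell in ard1 and limma called 0 in dot1. At an unadjusted p under 0.05, dot1 had 1 up and 2 down. Counts this small lie close to the shares over all genes. BNA2, the first enzyme gene of synthesis from tryptophan, rose in swi4 (1.22 ± 0.16). SIR2, which encodes the deacetylase that nicotinamide inhibits, fell there (−0.76 ± 0.12). BNA1 rose and TNA1 fell in swi4 too (0.65 and −0.47, both named after their values were seen), and limma called 0 of the 19 there when either swi4 array was left out. BNA5, the kynureninase gene, and URH1, a nucleosidase gene, fell in ard1 (−1.35 ± 0.15 and −0.785 ± 0.09).

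A wider list of stress genes of the Msn2 and Msn4 type, again without chaperones, held 39 measured genes beyond the 10. In swi4, 18 of the 39 rose and 0 fell, with a median of 0.59 beside −0.10 over all genes. ECM4, a glutathione transferase gene, rose by 1.58 ± 0.15, SOL4, a 6-phosphogluconolactonase gene, by 1.34 ± 0.16 and FMP16 by 1.32 ± 0.30, besides YNL194C. In dot1 only ECM4 rose (0.85 ± 0.15), with a median of 0.33. In ard1, 1 rose (GCY1, 0.73, named after its value was seen) and 9 fell, with a median of −0.23. The largest falls were those of SDP1 (−1.17), CYC7 (−1.14) and XBP1 (−0.97), also named after their values were seen. When wt replicate 2 was left out the swi4 count was 7, for either ard1 array 11 and for either swi4 array 1. The dot1 count was 6 after median centring, 5 after quantile normalization, 9 with a prior depending on level and 6 with dim genes removed. It was 10 without wt replicate 1 and 0 without any 1 of the other arrays, and the falls in ard1 numbered 1 and 2 without ard1 replicates 1 and 2.

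Trehalose and glycogen genes, which make or break down storage carbohydrate under the same regulators, were all negative in ard1. Of 16, 8 fell there and 0 rose (median −0.52), among them ATH1, an acid trehalase gene (−1.19 ± 0.11), GSY1, a glycogen synthase gene (−1.10 ± 0.17), and the trehalose synthesis genes TSL1 (−0.99 ± 0.10) and TPS2 (−0.70 ± 0.10). In swi4 1 gene rose, GLG1 (named here after its value was seen, 0.68), with a median of 0.21, and in dot1 0 were called in limma (6 up and 0 down at an unadjusted p under 0.05), with a median of 0.31. The ard1 falls numbered 3 and 4 without ard1 replicates 1 and 2, and 10 without wt replicate 2. The swi4 count was 6 without wt replicate 1 and 0 without wt replicate 2 or either swi4 array, and in dot1 it was 4 without wt replicate 1.

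Small heat shock, disaggregase and other heat shock genes, most of which encode chaperones, had positive changes in all 3 mutants. Of 8 measured, 3 rose in dot1, 5 in swi4 and 3 in ard1, with medians of 0.54, 0.68 and 0.39. HSP26, a small heat shock protein gene, read 8.75 and 8.26 on the wt arrays, 11.87 and 11.67 on the dot1 arrays, 12.52 and 12.11 on the swi4 arrays and 11.88 and 11.89 on the ard1 arrays. Its changes were 3.26, 3.81 and 3.38 for the 3 mutants. SSA4, an inducible Hsp70 gene, rose by 2.09, 1.997 and 1.78 in dot1, swi4 and ard1 respectively, and HSP78 by 0.92, 0.75 and 0.795. Whether these heat shock genes as a group differ from the 10 genes was not tested. SSA3 (0.85) and HSP30 (0.62, named after its value was seen) made up the 5 of swi4. After median centring 5 rose in dot1 and 5 in ard1, and with a prior depending on level 5 did in dot1. The counts were 1 without dot1 replicate 2 in dot1, and in swi4 2 without swi4 replicate 1 and 3 without swi4 replicate 2 or wt replicate 2.

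**Figure D5:**
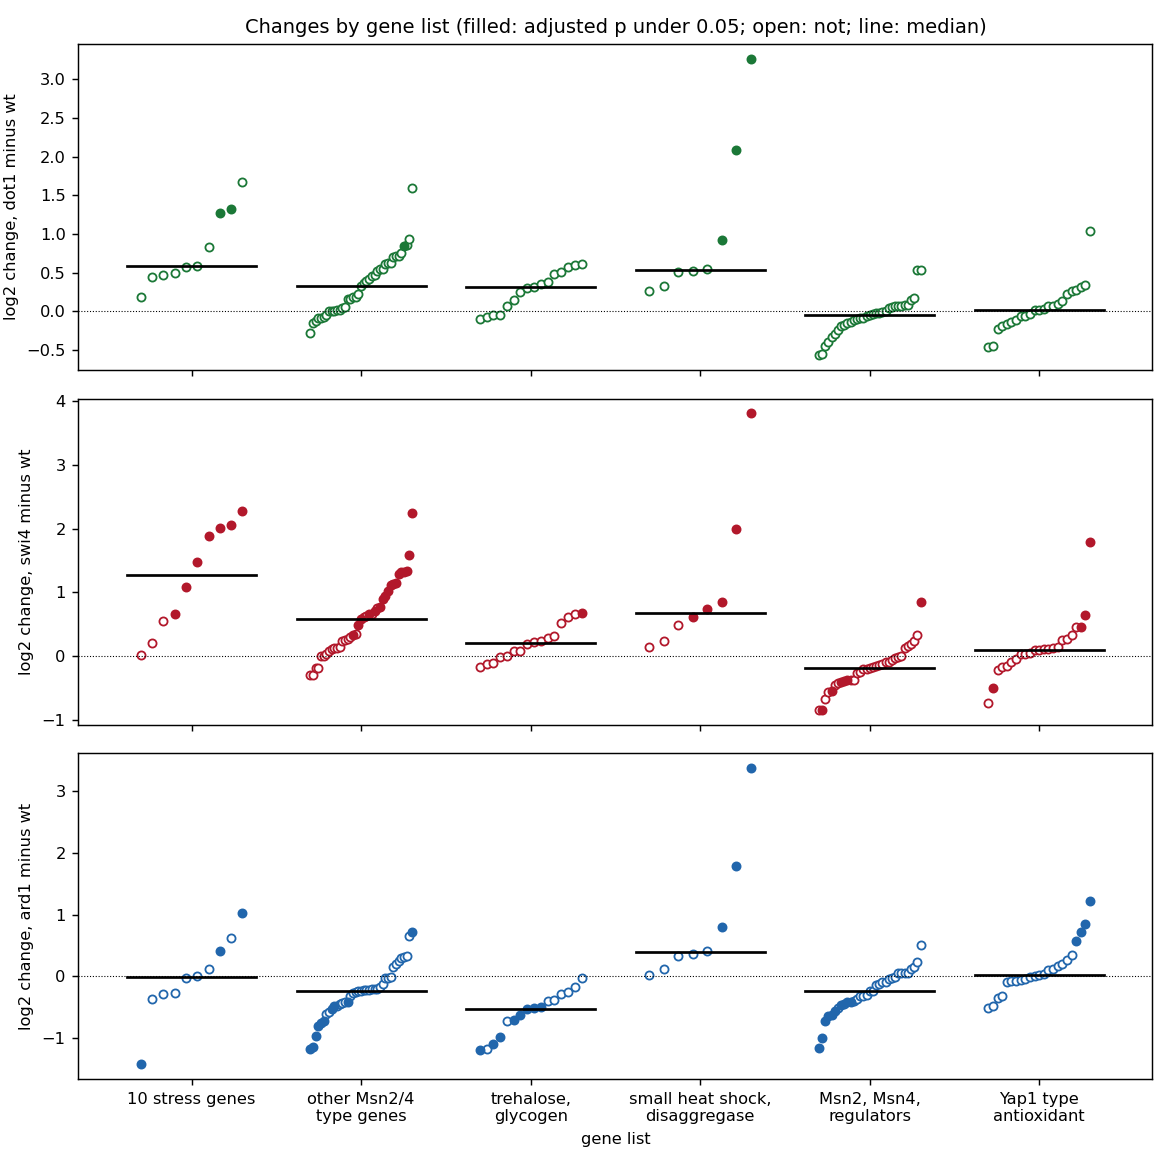
Log2 change against wt (vertical axis) of every measured gene of 6 lists in dot1 (top), swi4 (middle) and ard1 (bottom); filled points passed the threshold and lines are medians. The medians of the 10 genes are 0.58, 1.28 and −0.02, and the trehalose and glycogen genes all lie below 0 in ard1.

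MSN2, MSN4 and their regulators, 33 measured genes, had medians of −0.04, −0.18 and −0.24 in the 3 mutants. MSN4 read 10.06 and 10.22 on the wt arrays, 10.50 and 10.86 on the dot1 arrays, 10.43 and 10.53 on the swi4 arrays and 9.41 and 9.62 on the ard1 arrays. It fell in ard1 (−0.63 ± 0.15, limma adjusted p = 0.0306) and gave 0.54 in dot1 and 0.34 in swi4 (adjusted p = 0.102 and 0.181). MSN2 gave 0.04, −0.39 and −0.51 ± 0.14 in dot1, swi4 and ard1 (adjusted p = 0.907, 0.123 and 0.0541). Of the 33 genes, 9 fell and 0 rose in ard1, among them GIS1, a zinc-finger factor gene of the response to nutrient limitation (−1.16 ± 0.14), and PSR2, a phosphatase gene of the plasma membrane (−0.999 ± 0.09). In swi4, PDE1, a cAMP phosphodiesterase gene, rose (0.85 ± 0.13), and 4 genes fell, RAS1 (−0.84 ± 0.21), PSR2 (−0.405 ± 0.09) and, named after their values were seen, SCH9 (−0.55) and PDE2 (−0.37). In dot1, limma called 0 (2 up and 5 down at an unadjusted p under 0.05). The ard1 falls numbered 3 without either ard1 array and 5 without either swi4 array. In swi4 the falls numbered 2 after median centring and 7 with a prior depending on level. They were 10 without wt replicate 1, 2 without wt replicate 2, 0 without either swi4 array and 1 without either ard1 array. The activity of Msn2 and Msn4 proteins is not measured by these levels.

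Antioxidant genes of the Yap1 type with HSF1, YAP1 and SKN7 gave medians near 0: 0.02 in dot1, 0.09 in swi4 and 0.03 in ard1. Of 23, 3 rose and 1 fell in swi4, 4 rose and 0 fell in ard1, and limma called 0 in dot1 (4 up and 1 down at an unadjusted p under 0.05). TSA2, a peroxiredoxin gene, rose in swi4 (1.79 ± 0.22) and ard1 (1.22 ± 0.22). CCP1, the cytochrome c peroxidase gene, rose in swi4 (0.64 ± 0.11). ATR1, an efflux pump gene, and GPX2, a glutathione peroxidase gene, rose in ard1 (0.85 ± 0.10 and 0.72 ± 0.12). SOD2 was the third riser in swi4 (0.46) and SKN7 the gene that fell (−0.50), and CCS1 was the fourth riser in ard1 (0.58), these named after their values were seen. The rises ranged from 0 to 3 in swi4 and from 1 to 5 in ard1 when 1 array was left out.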

How the data were processed

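RNA (total, hot acid phenol) was amplified to biotin-labelled cRNA, per the labels' protocols, for 1 Affymetrix array per culture. The deposited intensity values were made by the authors with RMA, per the submitters' processing notes, and are on a linear scale (15.2 to 35540). RMA removes background, so signal over background is unknown, and the 8 arrays limit the precision. RMA is also meant to equalise the arrays, but the deposited values of wt replicate 2 kept the higher median given above. Here log2 was taken, probe sets with 1 gene symbol were kept (5498 of 5814), and the brightest probe set represented a gene, leaving 5449 genes. Limma 3.58.1 in R 4.3.3 fitted 4 group means over the 8 arrays (4 residual and 2.73 prior degrees of freedom) without a replicate term, two-sided, with Benjamini-Hochberg adjustment over all genes of each comparison. Errors are standard errors. The fit was checked on simulated data with independent noise on each array. That check cannot speak to differences that replicates of several strains share. "Rose" and "fell" mean an adjusted p under 0.05.

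The genes, lists and tests were chosen with earlier results of these data known. Named list genes were up to 4 per list with the largest called change, all paralogues, MSN2 and MSN4, and the genes most correlated with the set or with 1 of its genes; others are marked. Alternatives were median centring, quantile normalization, fitting 2 groups alone, a prior depending on level, leaving out the dimmest 25% of genes, averaging probe sets, a replicate block and leaving out each array. Promoter motifs were not analysed here.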

Additional observations from a re-analysis of the deposited data

How the results depend on the processing

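Under the settings that kept all arrays, the count of called genes in swi4 against wt (7) ranged from 5 to 8, and in ard1 against wt (3) from 2 to 4. The dot1 count (2) became 1 after quantile normalization, 5 with a prior depending on level and 0 with only dot1 and wt fitted. For swi4 against dot1 the count (1) became 0, 2 and 0 under these settings. The median change in swi4 was 1.08 without the dimmest 25% of genes, which leaves out ALD3. The labels do not say that replicate numbers mark a shared batch, but differences between replicates correlated over all genes in each pair of strains (r from 0.35 to 0.75). With the replicate block the count was 8 in dot1 against wt and 3 in swi4 against dot1, against 2 and 1 without it, and the other 4 counts were 8, 3, 7 and 7 (swi4 and ard1 against wt, ard1 against dot1 and swi4). Compared with the fit without it, the block added HSP12, CTT1, ALD3, NQM1, SPI1 and USV1 in dot1 (limma adjusted p from 0.0148 to 0.0440). In swi4 it added DDR2. Of these, HSP12 and SPI1 in dot1 and DDR2 in swi4 also passed with a prior depending on level.

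Leaving out each of the 8 arrays in turn gave 0 to 7 called genes in dot1, 1 to 8 in swi4 and 1 to 3 in ard1 against wt. Between mutants it gave 0 to 2 for swi4 against dot1, 2 to 6 for ard1 against dot1 and 3 to 7 for ard1 against swi4. The medians ranged from 0.43 to 0.78 in dot1, 0.99 to 1.58 in swi4 and −0.12 to 0.09 in ard1. A strain left with 1 array is assumed to vary like the others.

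No called change reversed. Uncalled changes reversed for 4 genes. PNC1 in swi4 ranged from −0.078 (without swi4 replicate 1) to 0.13 over the arrays left out. In ard1, DDR2 gave 0.041 after centring and 0.019 after quantile normalization, and ranged from −0.13 to 0.061 (without ard1 replicate 1; 0.057 without wt replicate 1). NQM1 in ard1 ranged from −0.055 (without wt replicate 2) to 0.28, and RTN2 from −0.12 (without ard1 replicate 2; −0.099 without wt replicate 2) to 0.12. The cause was not tested.

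Counts in the other gene lists moved as well. With the block, the 39 further stress genes had 16 rises in dot1 (1 without it), the trehalose and glycogen genes 5 in dot1 and 4 in swi4 (0 and 1), the small heat shock genes 5 in dot1 (3), and the regulators 3 falls in dot1 and 10 in swi4 (0 and 4). The antioxidant genes had 2 rises in dot1 and 5 in swi4 with it (0 and 3), and the NAD genes 3 rises and 4 falls in ard1 (0 and 2). With only the mutant and wt fitted, rises among the 39 genes were 0 in dot1 and 6 in swi4, and falls in ard1 were 3. That fit gave the small heat shock genes 0 rises in dot1 and 3 in swi4, the trehalose and glycogen genes 0 rises in swi4 and 4 falls in ard1, the regulators 0 falls in swi4 and 3 in ard1, and the antioxidant genes 1 rise in swi4 and 2 in ard1. Trehalose and glycogen genes had 2 rises in swi4 after centring, and 3 after quantile normalization or with a prior depending on level. After centring or quantile normalization the NAD genes had 2 rises in ard1 and the antioxidant genes 5 in swi4.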
